A study of Daphnia magna with 30 samples.

Results

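Chitin-modifying enzymes are described here through 2 probes of a *Daphnia magna* microarray, taken by their names from the 14338 *D. magna* probes on the array. DM03975P4 carries the name chitin deacetylase 3 precursor and DM12429P1 the name chitinase domain-containing protein. The names come from a table of reannotated probes in the study, where each is the best match among *Daphnia* entries. That table lists transcripts chosen for a difference between photoperiods, and both members are listed for experimental trial 2, whose animals are those analysed here. Neither the choice of these probes nor a test on them is therefore independent evidence of a response.

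The study asked how day length alters gene expression in an animal whose life cycle follows the seasons. Water fleas of a single genotype, raised from 1 founding female, were placed as neonates from a 16L:8D culture into 1 of 5 photoperiods, written as hours of light and of dark. These were the short days 4L:20D and 8L:16D, the equinox photoperiod 12L:12D, and the long days 16L:8D, which was the control, and 20L:4D. The 30 arrays analysed here are those of experimental trial 2, with the RNA of 1 whole adult female of 21 days on each. Every photoperiod had 3 exposure chambers, from each of which 2 animals, called A and B, were analysed. The animals were taken soon after the lights came on, with whatever eggs or embryos the brood pouch held, and all were fed the same algae and yeast mixture. The 3 chambers of a photoperiod stood in the same box under the same lamp, so photoperiod and box cannot be told apart. In whole-animal RNA, fewer cells of a type and less RNA per cell cannot be told apart either. Both probes named for vitellogenin, the yolk protein of reproducing females, were well above background on 30 of 30 arrays.

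Chitin, a polymer of N-acetylglucosamine, forms with cuticle proteins the exoskeleton of arthropods, and a chitin matrix also lines their gut. The exoskeleton does not grow, so it is rebuilt at every moult, and adult *Daphnia* females keep moulting through life, close to the release of each brood. Chitin deacetylases remove acetyl groups from the polymer and turn it into chitosan, which in insects affects how the chitin fibres are ordered, while chitinases cut the polymer, as when old cuticle is digested before it is shed. Glutamine:fructose-6-phosphate aminotransferase stands at the entry of the pathway that makes the sugar units from which chitin is built.

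The probes are the only sequences by which these transcripts were measured, and they are shown because the name chitin deacetylase 3 stands on more than 1 of them. DM01941P4, which is no member, has the same best protein match as DM03975P4, and DM07224P1, with the name brain chitinase and chia, is a chitinase probe that was high in the same animals. Sequences are those of the study's probe table, 5′ to 3′, and capitals mark the longest run of bases that both deacetylase 3 probes share.
DM03975P4: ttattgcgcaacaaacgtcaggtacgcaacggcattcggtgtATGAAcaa
DM01941P4: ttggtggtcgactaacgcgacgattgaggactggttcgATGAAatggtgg
DM12429P1: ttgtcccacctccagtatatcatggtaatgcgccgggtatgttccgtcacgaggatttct
DM07224P1: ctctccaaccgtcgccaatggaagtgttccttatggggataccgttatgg
That run is 5 bases long in probes of 50 bases, so the deacetylase 3 probes read different stretches of sequence. DM12429P1 is a probe of 60 bases. Over all 21 pairs of the 7 probes with chitin-related names, the longest run shared on the same strand was 8 bases. No genome position is given for the probes, because the sources used here pair none with them.

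Levels are given as the log2 of the background-subtracted signal relative to the 75th percentile of the same array, so that 0 equals that percentile. The extraction software called between 73.7% and 90.0% of the probes on an array well above background. A transcript responded to photoperiod where limma's moderated F test gave an unadjusted p under 0.01, which held for 1607 of 14337 probes, or 11.2%. A call in a given photoperiod further required a change of 1.5-fold or more from 16L:8D with an unadjusted p under 0.05. P values were adjusted over all probes by the method of Benjamini and Hochberg. Errors beside a log2 fold change are limma's standard errors, and the SD beside a mean is that of 6 animals.

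Both members responded to photoperiod, with a p of 0.000251 (adjusted 0.0203) for DM03975P4 and 0.00101 (adjusted 0.0332) for DM12429P1 in limma's F test. That fit counted the 2 animals of a chamber separately. With chamber means instead, the adjusted p of the same test was higher, 0.0606 for DM03975P4 and 0.0961 for DM12429P1. With normexp, described below, these were 0.132 and 0.0606. Only at the equinox were both called, and there in opposite directions. The chitin deacetylase 3 probe DM03975P4 was higher in the equinox photoperiod and in 8L:16D than in the control, by 11.8-fold and 5.66-fold, or log2 fold changes of 3.55 and 2.50. Only 3 of 6 control arrays had it well above background, and the size of these changes depended on the background correction, since normexp, a correction that models signal and background and adds an offset, gave log2 fold changes of 1.58 and 0.98, both still called. The chitinase domain probe DM12429P1 was lower by 1.97-fold in 4L:20D and by 1.79-fold at the equinox. Of the 2 members, 0 were called higher and 1 lower in 4L:20D, where 1.53% of all probes were called higher and 3.04% lower. In 8L:16D, 1 was called higher and 0 lower, against 1.76% and 2.37% of all probes. In 12L:12D, 1 was called higher and 1 lower, against 2.77% and 3.45%. In 20L:4D, 0 of 2 were called, against 0.802% of all probes, with an unadjusted p of 0.755 for DM03975P4 and of 0.0623 for DM12429P1 in limma's test.

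**Figure D1:**
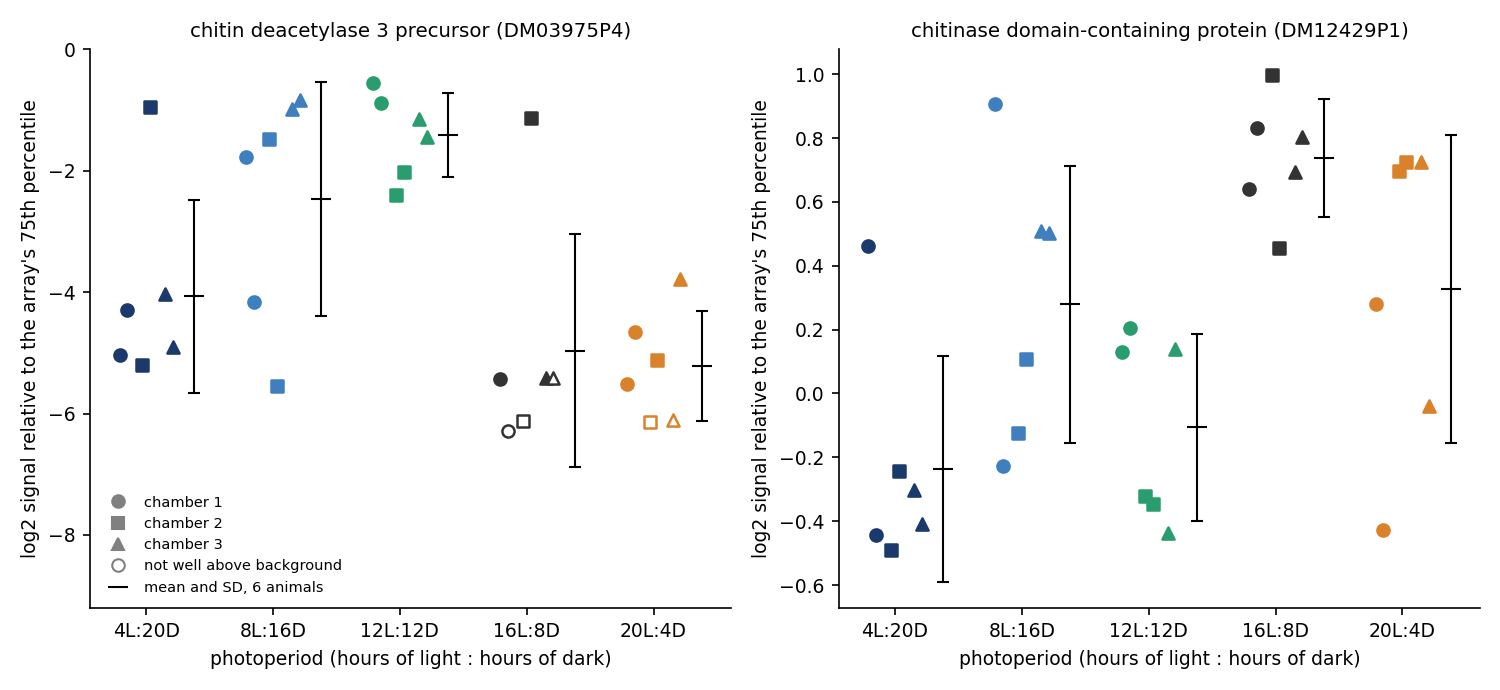
Levels of DM03975P4 (left) and DM12429P1 (right) in 30 single animals, as log2 signal relative to the 75th percentile of the array (y axis), by photoperiod (x axis). Symbols show the 3 chambers of a photoperiod, open symbols are animals not well above background, and bars are the mean and SD of 6 animals. All 6 animals of 12L:12D lie at or above -2.40 for DM03975P4, and all 6 lie below the lowest control animal for DM12429P1.

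The deacetylase probe DM03975P4 was a dim probe in the control. Its level in the 6 control animals was -6.29 at the lowest, -5.42 at the median and -1.13 at the highest, and it was well above background in 3 of the 6. Control animals therefore sat near the detection limit, apart from 1 of them. In 12L:12D the lowest animal was at -2.40, the median at -1.30 and the highest at -0.55, with 6 of 6 well above background. Each of these animals stood above all control animals but that 1, and 2 of the 6 stood above it as well. That control animal was set apart after the values were seen. The share of all probes that separate in this way was not computed. The mean was -1.41 ± 0.70 (SD, n = 6) against -4.97 ± 1.92 in the control. This gave a log2 fold change of 3.55 ± 0.79, with an adjusted p of 0.0168 in limma's moderated test.

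In 8L:16D the level of DM03975P4 ran from -5.55 through a median of -1.62 to -0.84. The range overlapped that of the control, and most animals stood in its upper part. A log2 fold change of 2.50 ± 0.79 was called there, while its adjusted p of 0.144 did not pass 0.05. In 4L:20D the animals lay between -5.20 and -0.95, with a median of -4.60, so the shortest day resembled the control more than it did 12L:12D in its median. The log2 fold change of 0.90 was not called, and its 95% confidence interval ran from -0.75 to 2.54. In 20L:4D the range was -6.14 to -3.78 and the median -5.31, with 4 of 6 animals well above background. No animal of the longest day reached the upper range. The log2 fold change of -0.25, with an interval of -1.89 to 1.39, was not called.

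In order of mean level, 12L:12D was followed by 8L:16D and then 4L:20D, with the control next and 20L:4D last. In limma's test no pair of neighbours in that order reached an unadjusted p under 0.05. The closest was 8L:16D against 4L:20D, with a log2 difference of 1.61, a p of 0.0550 and an adjusted p of 0.401. Between the ends of the order, 20L:4D was lower than 12L:12D by 3.81 ± 0.79 on the log2 scale, with an adjusted p of 0.0122. The interval of the difference between 12L:12D and 8L:16D ran from -0.59 to 2.70.

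In some photoperiods, above all 8L:16D, animals stood at separate levels of DM03975P4. Sorted by level, the 30 animals left their widest gap between -3.78 and -2.40, with 18 animals below it and 12 above. The 12 comprised 6 of 6 animals at the equinox and 4 of 6 in 8L:16D. A single animal of 6 stood above the gap in 4L:20D, and likewise 1 of 6 control animals, while 20L:4D had 0 of 6. The gap was found after the values were seen, so this count is a description and has no test. In the 8L:16D chambers, animal A of chamber 1 was at -1.77 and its chamber mate at -4.16, and animal A of chamber 2 was at -1.48 and its mate at -5.55. Both animals of chamber 3 were high, at -0.99 and -0.84. Animals that had shared water, food and light could thus stand on opposite sides of the gap. Chamber mates were on the same side in 11 of 15 chambers, and their absolute difference ran from 0.01 to 4.99, with a median of 0.86. The intraclass correlation of chamber mates within photoperiods was -0.14. The residual SD of this probe, 1.43 on the log2 scale, exceeded that of 93.4% of probes, whose median was 0.37.

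The single high control animal bears on every fold change of DM03975P4. It was animal B of chamber 2, at -1.13, while its chamber mate was at -6.12. Without that control chamber, the log2 fold change in 4L:20D was 1.57, which was then called. That in 8L:16D was 3.17 and that in 12L:12D was 4.22. In 20L:4D the direction turned, to an uncalled 0.42. With slide as a block, the response to photoperiod had a p of 0.0213, and neither 8L:16D (2.59) nor 12L:12D (3.57) was called. Only 2 slides held animals of both 12L:12D and 16L:8D, and DM03975P4 was higher in 12L:12D on both, by 3.45 and 4.62. The 1 slide with both 8L:16D and 16L:8D animals held 1 of each, with a difference of -0.14.

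With chambers as the units, the F statistic of DM03975P4 had an unadjusted p of 0.00475 (one-sided permutation test over 15 chamber means, 100000 draws), on the same animals that led to its listing. The chamber means were -0.72, -2.21 and -1.30 in 12L:12D and -5.86, -3.63 and -5.41 in 16L:8D. With 3 chambers against 3, the smallest p an exact two-sided permutation test allows is 0.1, and that was the p for both 12L:12D and 8L:16D. It says only that the chamber means did not overlap, and the share of all probes that reach it was not computed.

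The other deacetylase 3 probe, DM01941P4, followed the same animals. Only 1 of 6 control arrays had it well above background, and its level there ran from -6.76 through -5.98 to -0.39. In 12L:12D it ran from -1.68 through -0.90 to -0.43. The ranges overlapped only through the same single control animal, animal B of chamber 2, again a description made after the values were seen. DM01941P4 was called in 8L:16D, with a log2 fold change of 3.00 ± 0.94 and an adjusted p of 0.137, and at the equinox, with 4.19 ± 0.94 and an adjusted p of 0.0169 in limma's test. With normexp these were 1.17 and 1.77, both still called, so their size too depended on the background correction. Its widest gap lay between -3.17 and -1.68, and the 12 animals above it were the same 12 as for DM03975P4. As both probes are matched to the same protein entry, they count as 1 measurement of that transcript family and not as 2.

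DM07224P1, named brain chitinase and chia after chitinases that cut chitin, split the animals in the same way with a wider step. Its level in the control ran from -6.33 through -5.35 to 2.38, and in 12L:12D from 1.14 through 2.38 to 3.25. The 12L:12D animals were again above all control animals but animal B of chamber 2, and 3 of them were above that animal too. As before, it was set apart after the values were seen. No animal lay between -2.81 and 1.14, and the 12 above that gap were again the 12 of DM03975P4. Calls were made in 8L:16D, at a log2 fold change of 3.93 ± 1.54 with an adjusted p of 0.210, and at the equinox, at 6.20 ± 1.54 with an adjusted p of 0.0232 in limma's test. With 4 of 6 control arrays well above background, normexp gave 2.50 and 4.06. In 8L:16D the call was lost without 8L:16D chamber 3 (2.59), 16L:8D chamber 1 (3.22) or 16L:8D chamber 3 (3.52).

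**Figure D2:**
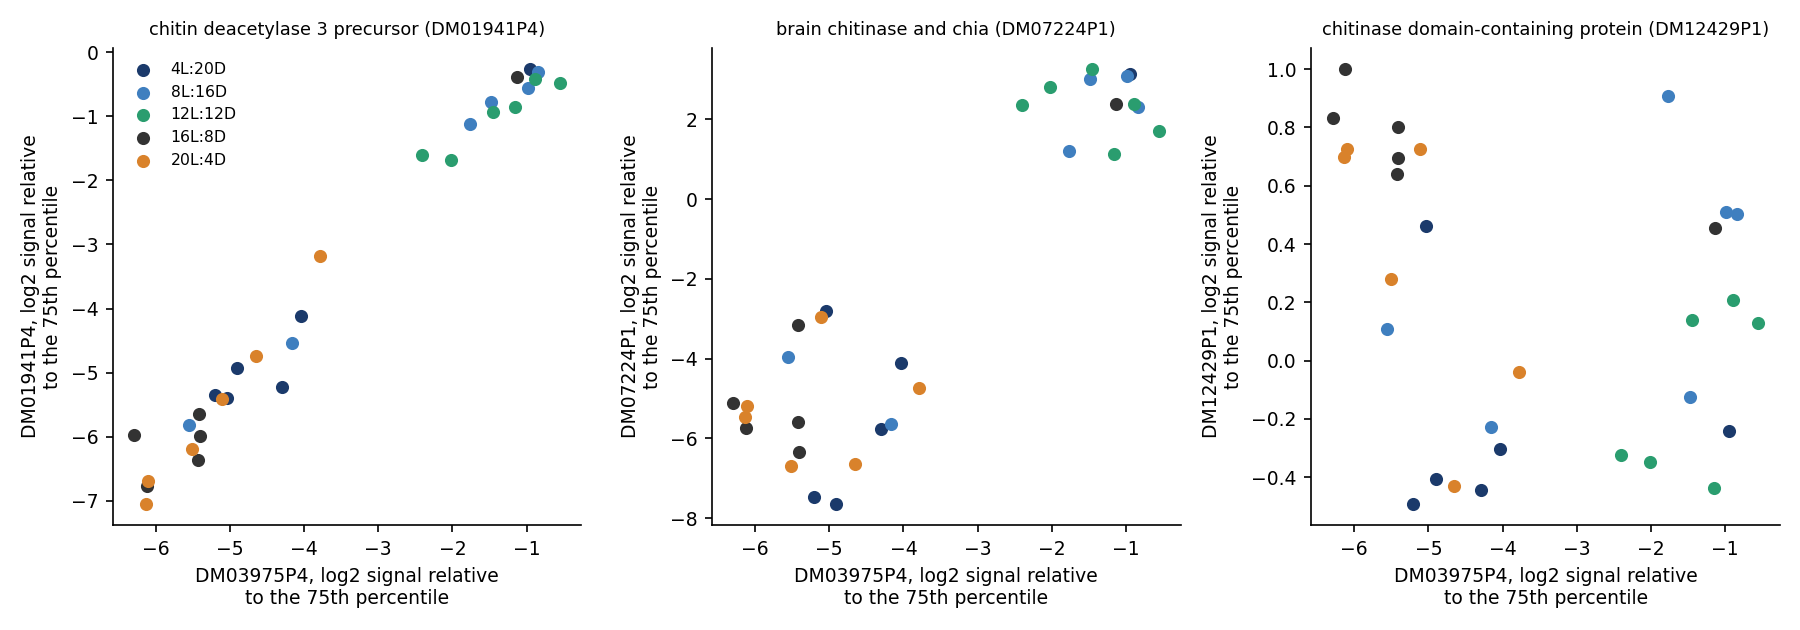
Level of DM03975P4 (x axis) against DM01941P4 (left), DM07224P1 (middle) and DM12429P1 (right) in the same 30 animals, all as log2 signal relative to the 75th percentile of the array and coloured by photoperiod. The same 12 animals form the upper group for DM03975P4, DM01941P4 and DM07224P1, while DM12429P1 takes values from low to high in both groups.

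The chitinase domain probe DM12429P1 behaved differently. It was bright, well above background on 30 of 30 arrays, with a mean level higher than that of 77.5% of probes. The control animals ran from 0.46 through a median of 0.75 to 1.00, and their 3 chamber means were 0.74, 0.73 and 0.75. This was a narrow range next to those of the other photoperiods. In 12L:12D the animals ran from -0.44 through -0.10 to 0.21. All 6 lay below all 6 control animals, a lack of overlap in that direction found for 3.55% of all probes with a value on every array. In limma's test the log2 fold change was -0.84 ± 0.21, with an adjusted p of 0.0234.

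In 4L:20D the level of DM12429P1 ran from -0.49 through -0.36 to 0.46. Animal A of chamber 1 was the high one, just above the lowest control animal, and the other 5 lay below all control animals. The mean was -0.24 ± 0.35 (SD, n = 6) against 0.74 ± 0.19 in the control. This was a log2 fold change of -0.97 ± 0.21, with an adjusted p of 0.0158. In 8L:16D the animals ran from -0.23 through 0.31 to 0.91, and in 20L:4D from -0.43 through 0.49 to 0.73. In each of these photoperiods 3 of 6 animals lay below the lowest control animal. In 8L:16D the log2 fold change was -0.46, with a p of 0.0394 and an adjusted p of 0.282 in limma's test, but the change was under 1.5-fold and so not called. That in 20L:4D was -0.41, with an interval of -0.84 to 0.02, and was not called either.

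In order of mean level of DM12429P1, the control was followed by 20L:4D and then 8L:16D, with 12L:12D next and 4L:20D last. In limma's test no neighbours in that order reached an unadjusted p under 0.05, and 16L:8D against 20L:4D came closest at a p of 0.0623. Of the 4 other photoperiods, 12L:12D and 4L:20D differed from each other by 0.13, with an interval of -0.30 to 0.57. Over 15 chamber means its F statistic had an unadjusted p of 0.0110 (one-sided permutation test, 100000 draws), again on the animals that led to its listing. The exact two-sided test of 3 chambers against 3 gave 0.1, the smallest p it allows, in each of the 4 photoperiods. That p says only that the chamber means did not overlap, and the 4 comparisons share the same 3 control chambers. The share of all probes that reach it was not computed.

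Chamber mates differed less in DM12429P1 than in DM03975P4, by 0.01 to 1.13 with a median of 0.23. The intraclass correlation of chamber mates within photoperiods was 0.00, so mates were no more alike than animals of different chambers. The residual SD was 0.37, with 50.1% of probes below it. On the slides that held both groups, DM12429P1 was lower than in the control on 2 of 2 slides in 12L:12D (-1.14 and -1.26) and on 2 of 2 in 4L:20D (-0.95 and -1.06). With slide as a block, both calls stood. In 20L:4D the change was called without chamber 2 of that photoperiod, at -0.60.

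The 5 other probes with chitin-related names did not all move in the same direction. Of the 5, 3 were called higher in 8L:16D, 2 at the equinox and 1 in 4L:20D, against 1.76%, 2.77% and 1.53% of all probes. DM01941P4 and DM07224P1 were called in 8L:16D and at the equinox, and DM02985P4 in 8L:16D and 4L:20D. DM01941P4 is no measurement apart from the member DM03975P4, since both are matched to the same protein entry. DM02985P4 is an aminotransferase whose own name does not hold the word chitin. In the same photoperiods 0 were called lower, against 2.37%, 3.45% and 3.04%. In 20L:4D 0 were called, against 0.802%. From the shortest to the longest day, the median log2 fold change of the 5 was 0.29, 0.78, 0.55 and -0.35, beside -0.06, -0.04, -0.05 and -0.02 over all probes. These 5 come from the same table as the members, which lists 2 of them for experimental trial 1 alone. Those were DM03120P2, named chitin deacetylase, and DM13721P2, a second probe with the name brain chitinase and chia. Neither responded to photoperiod here, with a p of 0.409 and 0.0569 in limma's F test.

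DM03120P2 was well above background on all arrays. Its control animals ran from -0.20 through 0.54 to 0.77, and the 8L:16D animals from -3.43 through 0.39 to 2.53. The deacetylase names thus did not share a pattern, and DM03120P2 and DM03975P4 had an r of -0.24 over the 30 arrays. DM13721P2 stayed between -4.21 and -2.48 over all animals, where DM07224P1, of the same name, ran from -7.63 to 3.25. Levels of different probes are not compared, since each probe binds its target with its own strength.

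DM02985P4, the aminotransferase at the entry of amino sugar synthesis, responded weakly. Its level ran from 0.01 through 0.32 to 0.65 in the control, from 0.54 through 0.95 to 2.09 in 4L:20D and from 0.28 through 1.16 to 1.78 in 8L:16D. The ranges overlapped, with 5 of 6 animals of 4L:20D and 4 of 6 of 8L:16D above the highest control animal. Both were called, 4L:20D at a log2 fold change of 0.79 ± 0.29 with an adjusted p of 0.0858 and 8L:16D at 0.78 ± 0.29 with an adjusted p of 0.193 in limma's test. The response had a p of 0.00438. Both calls were lost with chamber means (a p of 0.0457 for the response), with slide as a block (0.0867), with covariates for the 2 main axes of spread described below (0.0121) and without 8L:16D chamber 1 (0.0116), 8L:16D chamber 2 (0.0109), 16L:8D chamber 1 (0.0121), 20L:4D chamber 1 (0.0151) or 20L:4D chamber 2 (0.0196). Without 4L:20D chamber 3, the change in 4L:20D was 0.56 and was not called.

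**Figure D3:**
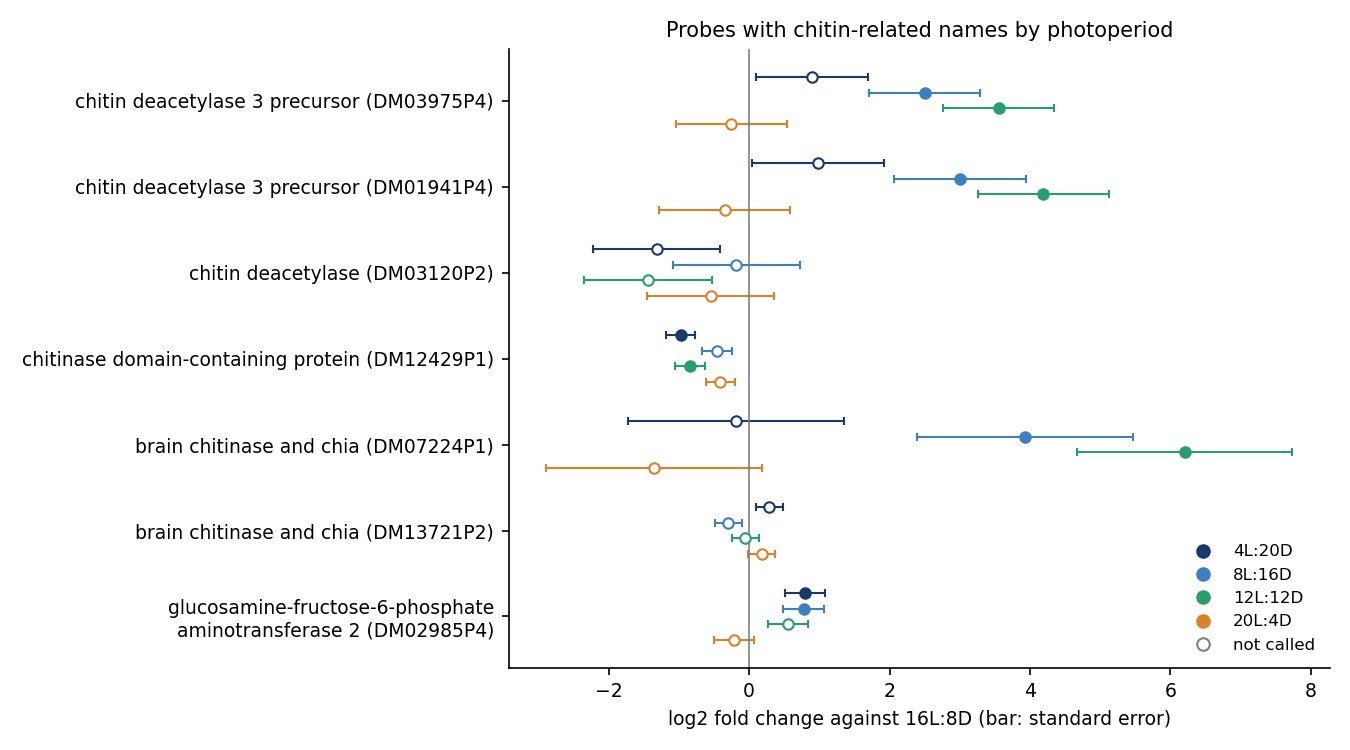
Log2 fold change against 16L:8D (x axis, bars are standard errors) of the 7 probes with chitin-related names in 4 photoperiods, with filled points called and open points not called. The 12L:12D points of DM03975P4, DM01941P4 and DM07224P1 lie at 3.55, 4.19 and 6.20, while those of DM12429P1 lie below 0 in all 4 photoperiods.

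Among 11767 probes with a value on all arrays and well above background on at least 15, the pattern of DM03975P4 over the 30 animals was most like that of DM11545P1 (hypothetical protein, r = 0.991), DM01941P4 (r = 0.990), DM12692P4 (hypothetical protein, r = 0.978), DM12537P1 (uncharacterized protein, r = 0.967) and DM08903P3 (no name, r = 0.964). These correlations describe 30 animals that fall into separate levels and have no test. Names were looked up only in the study's list of chosen transcripts, so no name means that this list gave none. After the mean of each photoperiod was taken away, r with the 5 probes was still 0.933 to 0.984, so the likeness was present among animals of the same photoperiod. In all, 42 probes had an r of at least 0.9 with DM03975P4, and 3 an r of -0.9 or below.

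The 5 probes most like DM12429P1 were DM00667P1 (no name, r = 0.938), DM06896P3 (no name, r = 0.937) and DM00044P3, DM00170P1 and DM00745P4, with r of 0.933, 0.932 and 0.932. Those 3 carry the same name, 26S protease regulatory subunit 6B, a part of the proteasome. Without the photoperiod means, r was 0.867 to 0.940 for the 5. The study's list gave none of them a chitin-related name, and the other chitin name nearest to DM12429P1 was the deacetylase DM03120P2, with an r of 0.67. With DM12429P1, 30 probes had an r of at least 0.9 and 5 an r of -0.9 or below. At 0.8 and -0.8 there were 310 and 273 such probes, against 164 and 43 for DM03975P4, so its pattern was widely shared. The 2 members themselves had an r of -0.29 over the 30 arrays, and -0.04 without the photoperiod means.

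**Figure D4:**
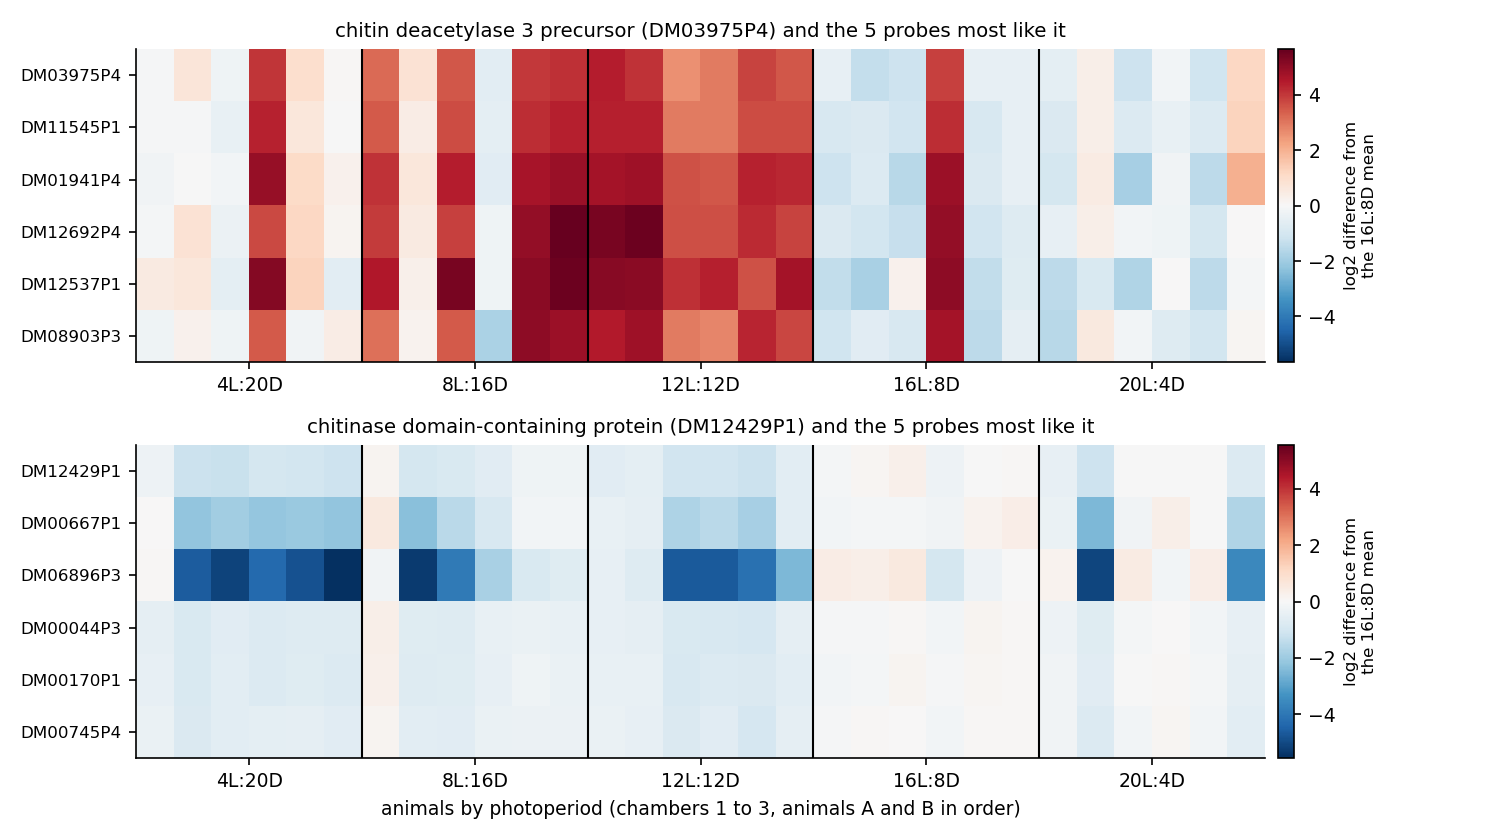
Each column is 1 of 30 animals, ordered by photoperiod, and each row a probe, with colour giving the log2 difference from the mean of the 16L:8D animals. The upper panel shows DM03975P4 and the 5 probes most like it, which are high in the same 12 animals, and the lower panel DM12429P1 with its 5.

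Both patterns ran along the main axes on which animals of the same photoperiod differed. These axes were computed from all probes with a value on every array, the members among them. The first 2 held 41.3% and 18.9% of the variance within photoperiods. The positions of the animals on them were not centred by photoperiod, so they also hold differences between photoperiods. Over the 30 animals DM03975P4 had an r of -0.92 with the position on axis 2, and DM12429P1 an r of -0.84 with that on axis 1. When both positions entered the fit as covariates, which was tried only after the data had been seen, no call of either member was kept. The log2 fold change of DM03975P4 at the equinox was then 0.80, with a p for the response of 0.608. DM12429P1 had -0.42 in 4L:20D and, at the equinox, -0.49, with a p of 0.0218. A fit with such covariates can take away a response to photoperiod by construction, so it does not test the response. What these axes stand for was not tested. The mean of the spike-in controls had an r of -0.26 with DM03975P4 and -0.04 with DM12429P1.

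Cuticle transcripts gave values on either side. Of 5 probes named for cuticle proteins, 2 were called higher and 1 lower at the equinox, against 2.77% and 3.45% of all probes. In 8L:16D 1 was called higher and 1 lower, against 1.76% and 2.37%, and likewise in 4L:20D, against 1.53% and 3.04%. In 20L:4D 0 were called, against 0.802%. These names come from the same table of transcripts chosen for a difference. DM08522P1, a putative cuticle protein, changed at the equinox by 4.21 ± 0.72 on the log2 scale, with an adjusted p of 0.0144 in limma's test, and an r of 0.90 with DM03975P4. DM12209P2, a protein of the exoskeleton with a chitin-binding domain of the peritrophin kind, changed by 2.05 there, called with an adjusted p of 0.141, and had an r of 0.83. That call was lost with normexp (1.25), chamber means, slide as a block, and without 4L:20D chamber 3, 12L:12D chamber 1 or 3, 16L:8D chamber 1 or 3, or 20L:4D chamber 1 or 3. DM12885P2, another putative cuticle protein, had log2 fold changes of -3.20 ± 0.76 in 12L:12D and, on the shortest day, -3.06, and an r of 0.84 with DM12429P1. DM06037P2, an endocuticle structural glycoprotein, was not called, as its response had a p of 0.0108 in limma's F test. Its log2 fold change at the equinox was -2.60, with an adjusted p of 0.0236 in limma's test. DM05769P2, a cuticular protein also not called, changed there by 1.19, with an adjusted p of 0.165. The same list held 2 probes named tyrosine 3-monooxygenase, an enzyme of the pathway that supplies cuticle tanning. DM00246P1 and DM06858P3 had log2 fold changes of -1.49 and -1.10 in 12L:12D, both called, the second not with normexp (-0.45). Covariates for the main axes ended every equinox call of these probes but that of DM00246P1.

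Of 8 probes with egg or yolk names from that table, 6 were called lower in 8L:16D, against 2.37% of all probes, and 5 in 4L:20D, against 3.04%. In 8L:16D these were the chorion peroxidase probes DM03869P1, DM03972P1, DM08907P2 and DM08909P1 and the vitelline membrane probes DM06044P1 and DM11500P2. All but DM06044P1 were also called in 4L:20D. The chorion peroxidase probes were dim, well above background on 17, 18, 19 and 9 of 30 arrays. At the equinox 5 were called lower, against 3.45%, and 1 higher, against 2.77%, while 0 were called in 20L:4D, against 0.802%. The higher one was the vitellogenin probe DM01555P3, at a log2 fold change of 1.97, with an adjusted p of 0.0220 in limma's test, while the other vitellogenin probe, DM00375P2, did not respond (p of 0.220). Over the 30 animals the r of the 8 probes with DM03975P4 lay between -0.80 and 0.59, and that with DM12429P1 between -0.39 and 0.68. The stage of each animal in its moult and brood cycle is not recorded in the sources used here, and its part in these values was not tested.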

How the data were processed

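RNA of 30 single animals was labelled with Cy3 and hybridized to Agilent one-colour arrays. The authors extracted spot intensities with Agilent Feature Extraction (10.7.3.1 per the file headers, 9.5.1 per the submitters' processing notes), and the deposited processed signal is a background-subtracted intensity, not log-transformed. The deposited log2 table was made by the authors in GeneSpring, with each array scaled to its 75th percentile and each probe to its median. It correlated at 0.9997 or above with values recomputed from the signals on every array and served as an alternative.

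Of 15744 spots per array, 536 were controls and not used. A further 188 spots of 456240 were dropped as outliers, and spots of a probe were averaged, which gave 14338 probes, of which 14337 could be tested. No filter on dim probes and no pseudocount was applied. The 75th percentile of the signal lay between 499.2 and 736.3, and precision is set by the number of arrays. The arrays lay on 9 slides of 1 to 5 arrays each, scanned on 2 days.

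Fits used limma 3.58.1 (R 4.3.3) and had a mean for each combination of photoperiod and animal letter (20 residual and 1.91 prior degrees of freedom). Chamber tests and correlations used Python 3.11.15 with numpy 2.4.6, pandas 2.3.3 and matplotlib 3.10.9 (figures). The fit was tested on simulated data. Alternatives were a two-way analysis of variance without moderation, photoperiod as the only term, a random block for chamber (statmod 1.5.0), chamber means, replicate number, slide or scan day as a block, quantile normalization, normexp on the median signal (the files hold no mean signal) with an offset of 50, a filter on dim probes, the deposited table and leaving out each chamber. Covariates for the positions on the 2 main axes of spread within photoperiods, not centred by photoperiod, were added after seeing the data. Probes named are the members, the probes with chitin-related names, the 5 most correlated with each member, and those called among cuticle and egg names. Named beside them, though not called, are the vitellogenin probe DM00375P2 and the cuticle probes DM06037P2 and DM05769P2. Members and lists were chosen with earlier results of these data known. Experimental trial 1 was not analysed here. The authors' fold changes and p values were not used.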

Additional observations from a re-analysis of the deposited data

Results flagged for a closer look

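In each photoperiod the highest or lowest of the 6 animals was compared with the rest by Dixon's ratio for the 7 probes with chitin-related names, which made 35 groups. Of these, 8 held an animal farther from the others than the 95% limit allows, and several of the 8 are the same animal. Chance alone flags about 1 group in 20 only where values are normal and groups independent. Here the probes share animals, and for some probes the animals stood at separate levels. The 8 are therefore a description and are not set against that rate. Animal B of chamber 2 in 16L:8D stood above the other control animals for DM03975P4 (-1.13), DM01941P4 (-0.39) and DM07224P1 (2.38). Animal B of chamber 2 in 4L:20D stood above the others for DM03975P4 (-0.95) and DM01941P4 (-0.27). Animal A of chamber 1 in 4L:20D stood above the others for DM12429P1 (0.46). Animal B of chamber 1 in 20L:4D was low for DM03120P2 (-3.30), and animal A of chamber 1 in 8L:16D was high for DM13721P2 (-3.35). All values are log2 signals relative to the 75th percentile of the array.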

How the results depend on the processing

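Of the 12 alternatives that kept all chambers, 10 left the response and every call or lack of call of DM03975P4 as it was, and 11 did so for DM12429P1. These counts rest on unadjusted p values. The adjusted p of limma's F test for DM03975P4 rose to 0.0606 with chamber means and to 0.132 with normexp. For DM12429P1 it rose to 0.0961 and 0.0606. With slide as a block, DM03975P4 had a p of 0.0213 for the response and log2 fold changes of 2.59 in 8L:16D and 3.57 in 12L:12D, neither called, and turned to 0.024 in 20L:4D. With covariates for the 2 main axes of spread, chosen after seeing the data, that p was 0.608 and the changes 0.86, 0.80 and 0.13, while DM12429P1 had a p of 0.0218 and changes of -0.42 in 4L:20D and -0.49 in 12L:12D, none called. The causes were not tested, and the positions on these axes also hold differences between photoperiods. Both settings also ended the calls of DM01941P4, DM07224P1 and DM02985P4.

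Over the 15 fits without 1 chamber, the p of the response lay between 1.87e-05 and 0.00245 for DM03975P4 and between 0.000429 and 0.00531 for DM12429P1. The log2 fold change of DM03975P4 lay between 0.40 and 1.57 on the shortest day, 1.73 and 3.17 in 8L:16D, 3.11 and 4.22 at the equinox, and -0.70 and 0.42 in 20L:4D, turning direction there without 16L:8D chamber 2. That of DM12429P1, in the same order, lay between -1.10 and -0.91, -0.57 and -0.31, -0.98 and -0.73, and -0.60 and -0.21.

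The number of probes responding was 861 with normexp and 376 with the axes, and 1059 (without 12L:12D chamber 3) to 1965 (without 8L:16D chamber 1) without 1 chamber. The number called was 366 and 134 in 4L:20D (398 to 825 without 1 chamber), 307 and 80 in 8L:16D (296 to 726), 506 and 88 in 12L:12D (557 to 1067), and 49 and 61 in 20L:4D (77 to 489), where slide as a block gave 305. Normexp moved the median log2 fold change of all probes to 0.14 at the equinox and 0.12 in 20L:4D, and changed no call of the members. It did lower the log2 fold change of DM03975P4, from 3.55 to 1.58 at the equinox, from 2.50 to 0.98 in 8L:16D and from 0.90 to 0.18 in 4L:20D, and its offset shrinks changes of dim probes by construction.

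Replicate numbers do not pair chambers in the labels. Over 30 pairs of chambers with the same number, deviations correlated at -0.60 to 0.60, and 3 of 15 chambers were most like one of their own number. With a replicate block the p of the response was 0.000522 for DM03975P4 and 0.00192 for DM12429P1, 1570 probes responded, and no call of the members changed. The main limits are 6 animals and 3 chambers per photoperiod, 1 box for each, the dim signal of DM03975P4 in the control, and probe names that rest on sequence matches.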
